A study of Mus musculus with 3 samples.

Results

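AGO2-bound sites were examined in 4 mouse chromatin genes, namely Tet3, Dnmt3a, Chd1 and Hdac2, in P19 cells. P19 is an embryonal carcinoma line that keeps features of the early embryo and can be driven to differentiate in culture. All 3 HITS-CLIP libraries were of 1 group, labelled CLIP_AGO2, made from the P19 stem cell line with the AGO2 antibody clone 2D4, and there was no treated, mutant or input group. In HITS-CLIP, RNA crosslinked to a protein is recovered with an antibody to that protein and sequenced in short pieces. The data were 4 peak lists for the series as a whole, 1 each from CIMS, Piranha, Pyicoclip and PIPE-CLIP, which are programs that call bound sites, with no value per library. Peaks of the 4 genes were those with the midpoint inside the gene's RefSeq span in mm10, on either strand, and they numbered 11 of 6911 peaks in all. The genes were chosen from their peaks in these same lists, so that they hold peaks at all is a description and was not tested.

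AGO2 carries a microRNA and pairs it with target RNAs, most often through the seed near the 5′ end of the microRNA, which lowers the stability or translation of the target. TET3 oxidises methylcytosine in DNA and so starts its removal, while DNMT3A sets new DNA methylation in the early embryo. CHD1 moves nucleosomes at active genes and keeps the chromatin of mouse embryonic stem cells open. HDAC2 removes acetyl groups from histones within the SIN3, NuRD and CoREST complexes. The miR-29 family is a well-known microRNA regulator of this pathway, having been shown to act on DNMT3A in human cells and on TET mRNAs. Its 3 mature 3p sequences in RefSeq (GRCm38.p6) are shown because they carry the seed by which that repression works, with bases 2 to 8 in capitals.
mmu-miR-29a-3p: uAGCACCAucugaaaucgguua
mmu-miR-29b-3p: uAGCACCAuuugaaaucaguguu
mmu-miR-29c-3p: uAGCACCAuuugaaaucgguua
The 3 sequences share 1 seed. Of the 4 miR-29 genes, Mir29a, Mir29b-1, Mir29b-2 and Mir29c, 0 held a peak in these lists, which hold no peak with a score under 10. The share of all microRNA genes with a peak was not computed here, so this count is no measure of miR-29 on AGO2 in these cells. Whether the AGO2 sites of the 4 genes contain a match to this or another seed was not analysed here, since no genome sequence was used.

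Tet3 held the most peaks of the 4 genes, with 5 peaks at 4 separate places, all near the 3′ end of the gene and all on the gene's own strand. The gene (RefSeq gene 194388) spans 83362373 to 83457208 on the minus strand of chromosome 6, a length of 94836 nt. A single place was held by 2 lists. There, Pyicoclip gave a peak of 74 nt at 83365084 to 83365157 with a score of 12, and PIPE-CLIP gave a cluster of 74 nt at 83365086 to 83365159 with a score of 11. The intervals shared 72 nt, which was 97.3% of each, so both callers placed the site almost to the base. PIPE-CLIP alone gave 3 further clusters. That at 83364517 to 83364600 was 84 nt wide and scored 10, that at 83367521 to 83367603 was 83 nt wide and scored 17, and that at 83370586 to 83370700 was 115 nt wide and scored 17. The highest scores of Tet3 were thus at the places with support from PIPE-CLIP alone, while the shared site scored 12 in Pyicoclip, the median of that list, and 11 in PIPE-CLIP, where the median was 14.

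The 4 Tet3 places were spread over 6184 nt of the gene, with gaps of 483, 2361 and 2982 nt between neighbours. Read in the direction of transcription, the peak midpoints lay between 91.3% and 97.7% of the span, and between 8270 and 2185 nt before its end. They were 71035 to 77120 nt after the listed transcription start at 83441678. Whether the sites of the 4 genes lie in exons, introns or untranslated regions was not analysed here. The spans of the microRNA gene Mir6374 and the long non-coding RNA gene B230319C09Rik lie within or across that of Tet3, and none of the 5 peak midpoints was in either. The running numbers in the PIPE-CLIP names followed genomic order on each of 22 chromosomes. Those of the Tet3 clusters ran from 172107 to 172119, so that 4 of 13 consecutive numbers were in the list and 9 were not. Over the list as a whole, 3257 clusters carried numbers up to 222973, or 1.46%. The range of 13 was set by the Tet3 clusters at its ends, so its share cannot be compared with that of the list.

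Dnmt3a held 1 site, found by 2 callers on the gene's own strand. The gene (RefSeq gene 13435) spans 3801559 to 3914443 on the plus strand of chromosome 12, 112885 nt in all. The Pyicoclip peak, at 3909556 to 3909676, was 121 nt wide with a score of 11, and the PIPE-CLIP cluster, at 3909604 to 3909679, was 76 nt wide with a score of 12. They shared 73 nt, equal to 96.1% of the narrower and 60.3% of the wider interval, and the PIPE-CLIP cluster covered the 3′ part of the Pyicoclip peak. Both midpoints lay at 95.7% of the span, 4827 and 4802 nt before its end. RefSeq lists 3 starts for Dnmt3a, and in mouse embryonic stem cells a shorter form made from an internal promoter is the main one. The Pyicoclip midpoint was 17872 nt after the most internal listed start, at 3891744, and 102636 nt after the first, so the site lay downstream of all of them. The nested non-coding genes Dnmt3aos and Gm31623 did not hold it.

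Chd1 also held 1 site near one end of its span, found by CIMS and Pyicoclip. The gene (RefSeq gene 12648) spans 15704967 to 15772612 on chromosome 17, 67646 nt in all, and its strand was not in the table used. The CIMS peak at 15770940 to 15770980 was 41 nt wide, as all CIMS peaks were, and scored 12. The second number in its name, m, was 3, where CIMS names give the score as k and a further number as m. The Pyicoclip peak at 15770903 to 15770969 was 67 nt wide and also scored 12. They overlapped by 30 nt, 73.2% of the CIMS and 44.8% of the Pyicoclip peak. Both were on the plus strand, and read along that strand they lay at 97.6% and 97.5% of the span, 1652 and 1676 nt before its end. Chd1 held the sole CIMS peak of the 4 genes. A CIMS peak was present in 0.279% of 21900 protein-coding genes, against 2.89% for Piranha, 4.54% for Pyicoclip and 7.12% for PIPE-CLIP.

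The site of Hdac2 was narrower than those of the other genes and lay in another part of the gene than those of Tet3 and Dnmt3a. The gene (RefSeq gene 15182) spans 36974297 to 37001889 on the plus strand of chromosome 10, 27593 nt in all, the shortest of the 4 spans. Piranha gave a peak of 20 nt at 36978521 to 36978540 and Pyicoclip a peak of 19 nt at 36978523 to 36978541, both on the plus strand and both with a score of 10, the lowest in either list. They shared 18 nt, or 94.7% of the narrower peak. The midpoints were at 15.3% of the span, 3986 and 3988 nt after the listed transcription start and 23359 and 23357 nt before the gene's end. This site was thus in the first part of the gene, where the sites of Tet3 and Dnmt3a were in the last. That of Chd1 was in the last part if read along its peaks' strand. No other annotated gene overlapped the span of Hdac2.

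**Figure D1:**
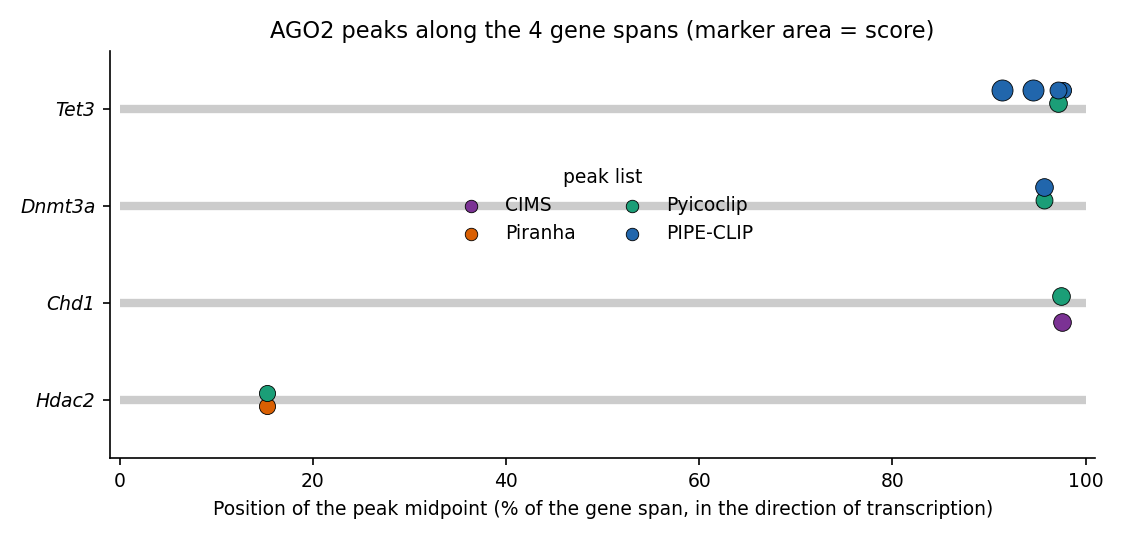
Each grey bar is the span of 1 gene from 0 to 100% in the direction of transcription (for Chd1, of the peaks' strand), and each marker is the midpoint of 1 of the 11 peaks, coloured by peak list, with an area in proportion to its score. Areas can be compared only between markers of the same list. The 9 peaks of Tet3, Dnmt3a and Chd1 lay between 91.3% and 97.7% of the span, and the 2 peaks of Hdac2 at 15.3%.

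Of the 4 sites held by 2 lists, each had a Pyicoclip peak, joined by PIPE-CLIP in Tet3 and Dnmt3a, by CIMS in Chd1 and by Piranha in Hdac2. Nearly all sites of exactly 2 lists in these data had one. The pairs with Pyicoclip numbered 1044, 358 and 9 sites, and those without it 12 and 2. All 4 genes had peaks in exactly 2 lists. They were chosen with such support known, and peaks in at least 2 lists were found in 3.99% of 21900 protein-coding genes, a peak in at least 1 list in 9.77% and at least 5 peaks, as in Tet3, in 1.02%. Among the 5946 protein-coding genes with a span of 27593 to 112885 nt, the range of the 4 genes, peaks in at least 2 lists were likewise found in 5.53% and in at least 1 list in 14.5%.

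**Figure D2:**
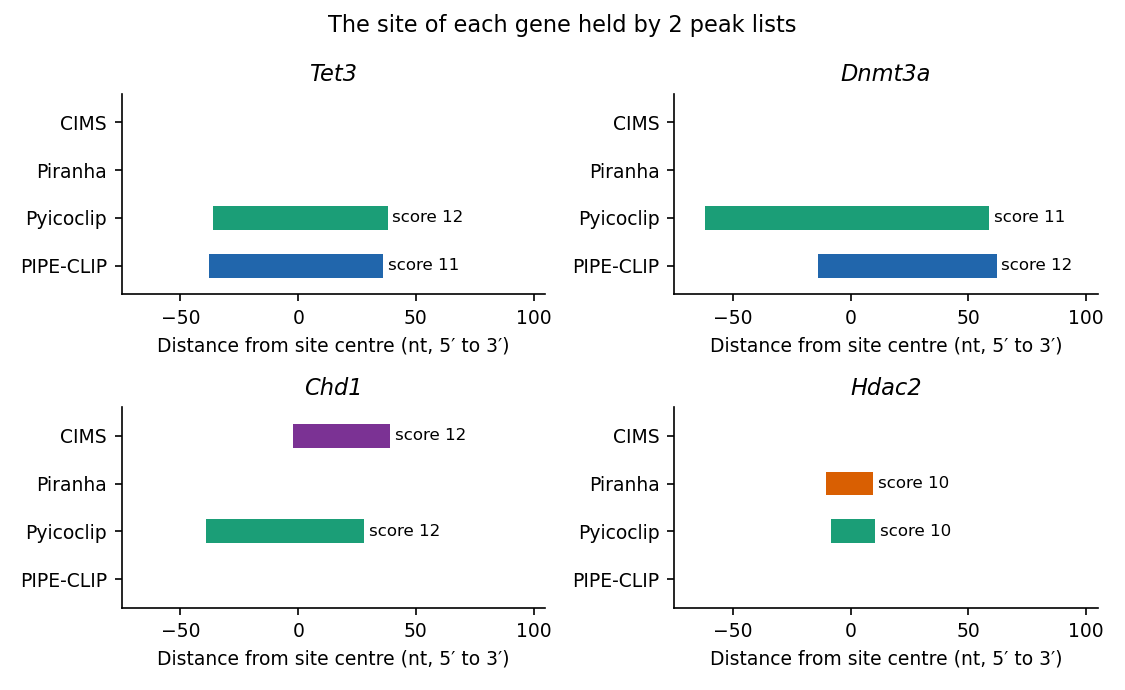
Each panel shows the site of 1 gene that 2 lists held, with the distance from the centre of the merged site in nt, 5′ to 3′ along the peaks' strand, on the x axis and the 4 peak lists on the y axis. Bars are the deposited intervals with their scores, and they overlap by 72 nt in Tet3, 73 nt in Dnmt3a, 30 nt in Chd1 and 18 nt in Hdac2.

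Of the 11 peaks, 9 scored at or below the median of their own list. The scores are the authors' own and their unit is not stated. They were ranked within a list only, as percentiles in which equal scores take their mean rank. Pooled over the lists, which is a description and not a comparison of callers, scores ran from 10 to 17 with a median of 12. Of the 11, 9 were 12 or lower. The 2 Tet3 clusters with a score of 17, at the 69.4th percentile of PIPE-CLIP, were the ones above the median of their list. The other PIPE-CLIP clusters were at percentile 7.06 and 21.5 in Tet3 and 34.1 in Dnmt3a. In Pyicoclip the peaks of Tet3 and Chd1 were at percentile 47.7, that of Dnmt3a at 32.7 and that of Hdac2 at 12.1. The Chd1 peak was at percentile 16.9 of CIMS, where the median score was 27, and the Hdac2 peak at 12.6 of Piranha. Scores of 12 or lower made up 18.3% of CIMS, 58.4% of Piranha, 54.2% of Pyicoclip and 39.4% of PIPE-CLIP. At a score of at least 15, the 2 Tet3 clusters were left and Dnmt3a, Chd1 and Hdac2 held no peak.

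**Figure D3:**
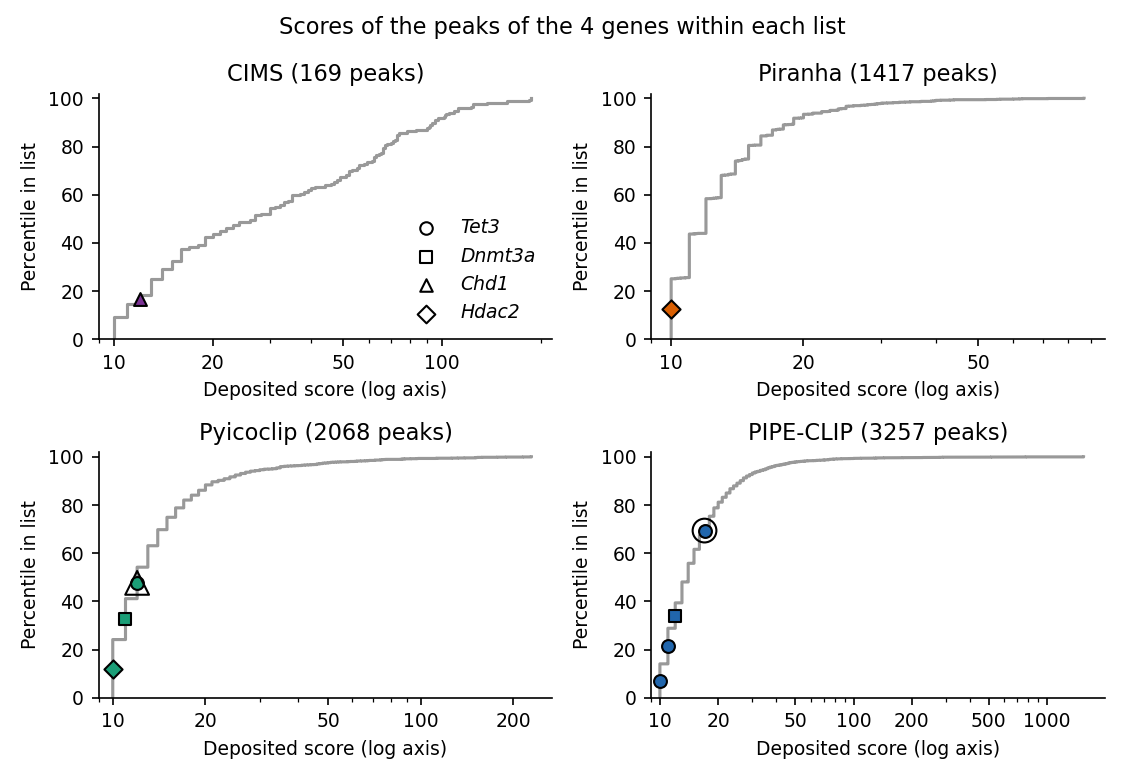
Grey steps give the share of peaks, in percent, at or below each deposited score (log axis) in 1 list per panel, and markers give the score and percentile of the peaks of each gene, with a larger open marker where a second peak has the same values. The markers sit at scores of 10 to 12, except for 2 PIPE-CLIP clusters of Tet3 at 17.

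The caller pairs of the 4 genes differed in how many other loci they alone held. Overlapping peaks merged over all lists gave 4617 loci. Pyicoclip with PIPE-CLIP, as in Tet3 and Dnmt3a, made up 358 of them (7.75%), Piranha with Pyicoclip, as in Hdac2, 1044 (22.6%), and PIPE-CLIP alone, as at the 3 other places in Tet3, 2563 (55.5%). CIMS with Pyicoclip and neither other list, as in Chd1, made up 9 loci (0.195%), although, with loci of further lists counted, Pyicoclip was present at 104 of the 114 loci that held a CIMS peak (91.2%). None of the 7 loci of the 4 genes had peaks of 3 or 4 lists. Such loci were few over the whole data too. The commonest pattern of this kind, Piranha with Pyicoclip and PIPE-CLIP, made up 182 loci (3.94%). Each other one made up at most 0.866%. Their absence among only 7 loci therefore does not set these genes apart.

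The width of Pyicoclip peaks went with sharing by PIPE-CLIP or Piranha, while the site of Chd1 was shared with CIMS. The Pyicoclip peaks of Chd1, Tet3 and Dnmt3a were 67, 74 and 121 nt wide. Of 447 Pyicoclip peaks of 60 to 130 nt, a range set after these values were seen, 67.1% lay in a locus with PIPE-CLIP, 31.1% with Piranha and 4.70% with CIMS. The Hdac2 peak was 19 nt wide. Of 1076 Pyicoclip peaks of at most 30 nt, 85.7% lay in a locus with Piranha, 0.186% with PIPE-CLIP and 2.32% with CIMS.

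All 9 peaks of Tet3, Dnmt3a and Hdac2 were on the strand of their gene, and Chd1 could not be judged. The value of that for Hdac2 depends on the width class. Taking stranded peaks in exactly 1 gene span, that of a protein-coding gene with a listed strand, 51.3% of 396 Pyicoclip peaks of at most 30 nt were on the gene's strand (95% Wilson interval 46.4 to 56.1). In the class of 60 to 130 nt it was 93.0% of 199 peaks (88.5 to 95.8). For PIPE-CLIP it was 98.2% of 2100 clusters (97.6 to 98.7), for CIMS 70.0% of 40 peaks (54.6 to 81.9) and for Piranha 58.5% of 496 peaks (54.1 to 62.7). The same classes differed in place. By the highest-scoring sense peak per gene, 9.60% of 198 genes had the site in the last 10% of the span for the narrow class (6.23 to 14.5), and 61.8% of 144 genes did for the wider one (53.7 to 69.3). The classes were set after the widths of these genes' peaks were seen, so a match in width carries no information. The sites of Tet3 and Dnmt3a were in the last 10% of the span, as in 61.8% of genes of the wider class. That of Hdac2 was not, but the narrow class had no typical place by this measure. Its interval of 6.23 to 14.5 holds the 10% that evenly spread sites would give. The place of the Hdac2 site therefore cannot assign it to that class. Whether the Hdac2 site is a microRNA target site was not tested. The intervals cover counting error over peaks or genes only.

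The larger number of PIPE-CLIP clusters in Tet3 stood beside an uneven strand in that list. Tet3 is the one gene of the 4 known here to be on the minus strand, and it held 4 PIPE-CLIP clusters, against 1 in Dnmt3a and none in Chd1 or Hdac2. Over all protein-coding genes with a listed strand, 12.2% of 8762 minus-strand genes held a PIPE-CLIP cluster (95% Wilson interval 11.6 to 12.9), against 1.98% of 8730 plus-strand genes (1.71 to 2.30). In the other lists the intervals of minus-strand and plus-strand genes overlapped, with 4.51% and 4.56% in Pyicoclip, 2.77% and 2.96% in Piranha and 0.205% and 0.263% in CIMS. Whether Tet3 RNA was bound more than the RNA of the other 3 genes therefore cannot be told apart from the strand of the gene in the PIPE-CLIP list. Without an input library, more RNA of a gene and more AGO2 on each RNA cannot be told apart either.

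**Figure D4:**
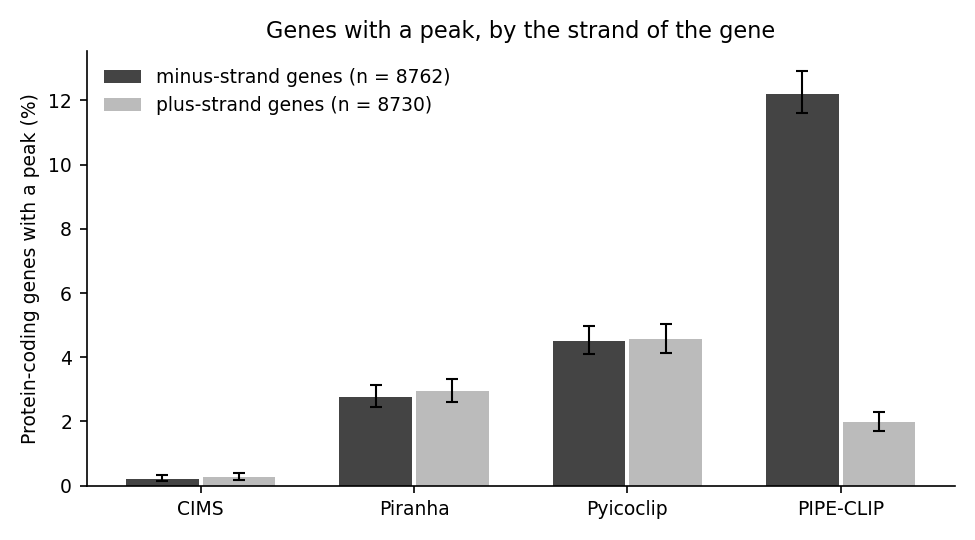
Bars give the percentage of protein-coding genes with at least 1 peak, for minus-strand genes (dark) and plus-strand genes (light) in each of the 4 peak lists, with 95% Wilson intervals as error bars. The bars are alike in CIMS, Piranha and Pyicoclip and stand at 12.2% and 1.98% in PIPE-CLIP.

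Relatives of the 4 genes were followed through 4 gene lists, which were drawn up with earlier results of these data known and which hold the 4 genes themselves. Of 96 genes matched, 25 held a peak, 12 of them in PIPE-CLIP alone, while 1137 of the 2140 protein-coding genes with a peak (53.1%) had it in PIPE-CLIP alone. Leaving out the 4 genes, 21 of 92 held a peak (22.8%, against 9.77% of all protein-coding genes) and 8 held peaks in at least 2 lists (8.70%, against 3.99%). The median number of peaks per gene was 0 in each of the 4 lists and over all protein-coding genes. Span lengths were not matched here, and the median span was 20986 nt for DNA methylation genes, 77762 nt for remodelling genes, 20972.5 nt for deacetylases and 51843 nt for their partners, against 17146 nt for all protein-coding genes.

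Of 23 matched DNA methylation and demethylation genes, 5 held a peak (21.7%) and 3 did so in at least 2 lists. Tet1, another oxidase of methylcytosine, and Dnmt1, which copies methylation after replication, held 1 PIPE-CLIP cluster each, with scores of 15 and 14. These lay at 99.2% and 91.1% of the span on the gene's own strand, so the sites of the 4 enzyme genes with a peak in this list, Tet3, Tet1, Dnmt3a and Dnmt1, were all in the last 10% of the span. In the whole PIPE-CLIP list the highest-scoring sense cluster was in that part in 44.4% of 1104 genes (41.5 to 47.3).

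Of 33 chromatin remodelling genes, 10 held a peak (30.3%) and 7 of these were in PIPE-CLIP alone. Among the relatives of Chd1, Chd2 held 4 PIPE-CLIP clusters with scores of 11 to 15, and Chd6, Chd8 and Chd9 held 1 each with scores of 15, 29 and 11. None of these shared the CIMS and Pyicoclip support of Chd1, but a CIMS peak was present in only 0.279% of protein-coding genes. Arid1a, a subunit of the BAF remodelling complex, held 5 PIPE-CLIP clusters with scores of 10 to 14 that were spread from 4.86% to 99.1% of the span. Atrx, a remodeller of repeat-rich chromatin, had peaks in 3 lists, but its Piranha and Pyicoclip peaks were on the strand opposite to the gene and also lay in the small gene Gm23656. Smarca2, an ATPase of the BAF complex, had a site of Piranha and Pyicoclip on the opposite strand and a Pyicoclip peak that also lay in Gm52395.

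Of 18 histone deacetylase genes, 4 held a peak (22.2%). Hdac9 was the other member with peaks in 2 lists. Like Hdac2 it had a narrow site of Piranha and Pyicoclip, 20 and 21 nt wide with scores of 14 each, at 60.9% of a span of 869516 nt, and a further Pyicoclip peak on the opposite strand. Hdac4 held 4 PIPE-CLIP clusters, 2 of them at 99.9% and 99.5% of the span with scores of 25 and 24, above any PIPE-CLIP score of the 4 genes. Hdac5 held 3 PIPE-CLIP clusters with scores of 12, 18 and 10. Hdac1, the closest relative of Hdac2, held none.

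Of 22 deacetylase complex partners, 6 held a peak (27.3%). Gatad2b, a subunit of the NuRD complex to which HDAC2 belongs, had the sole site of the 4 gene lists that 3 callers held. It held 6 peaks in 3 lists between 94.0% and 95.4% of its span, with 5 on the gene's strand and 1 without a strand. At 90359348 to 90359417 on chromosome 3, Pyicoclip, PIPE-CLIP and Piranha gave scores of 15, 14 and 11. Mta2, another NuRD subunit, had a narrow site with scores of 22 in Piranha and 22 in Pyicoclip on the strand opposite to the gene, 30 and 48 nt into the span and also within Gm10353. Sap130, of the SIN3 complex, had a narrow site of Piranha and Pyicoclip with scores of 10 and 10, the same callers and scores as in Hdac2.

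**Figure D5:**
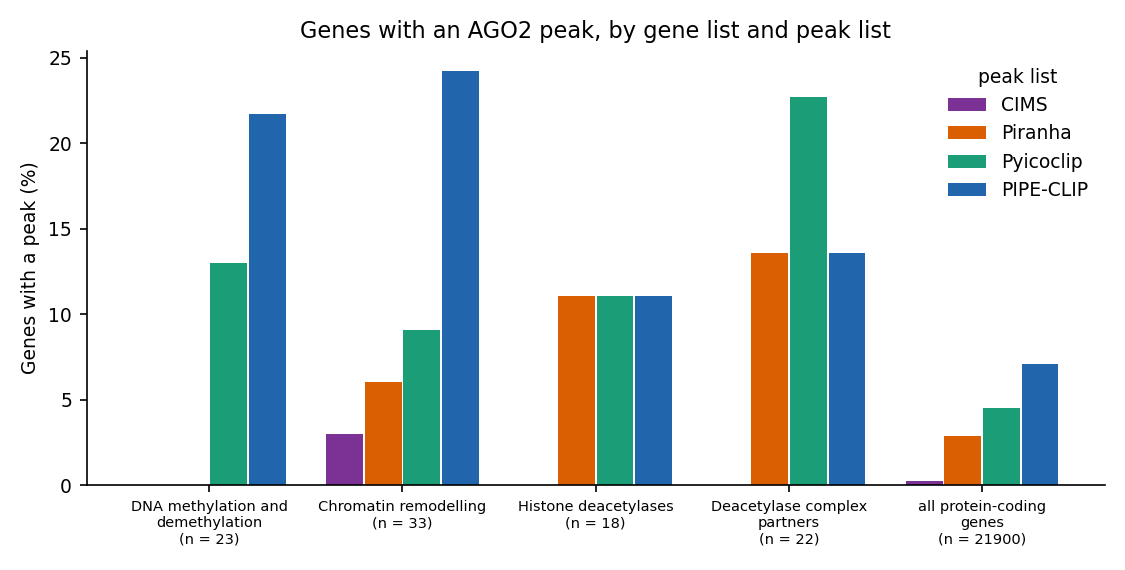
Bars give the percentage of genes with at least 1 peak in each of the 4 peak lists, for 4 gene lists and for all protein-coding genes, with n the number of genes matched. Bars of DNA methylation and remodelling genes are tallest in PIPE-CLIP (21.7% and 24.2%, against 7.12% of protein-coding genes), deacetylases stand at 11.1% in 3 lists, and their partners are tallest in Pyicoclip (22.7%, against 4.54%).

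The strand of PIPE-CLIP showed in these lists too. Of 37 listed genes on the minus strand, 11 held a PIPE-CLIP cluster, against 3 of 42 on the plus strand, while 4 of 37 and 5 of 42 held a Pyicoclip peak. Where the strand was listed, 28 of 28 PIPE-CLIP clusters in these genes were on the gene's own strand. For Pyicoclip 7 peaks were on the gene's strand and 5 on the opposite one, and for Piranha 3 and 3.

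Genes with the same number of peaks in each of the 4 lists were sought among the 2139 other protein-coding genes with a peak. The profile of Tet3 was shared by 10 genes, of which Otx2 and Sox4, both transcription factor genes, were nearest in their highest score percentile, by 7.72 and 10.6 points. That of Dnmt3a was shared by 82 genes, with Akap12 and Cachd1 first by name among equals. That of Chd1 was shared by 4 genes, with Actn2 and Sgcz nearest, by 11.0 and 29.2 points. That of Hdac2 was shared by 393 genes, with A830018L16Rik and Abcb11 first by name among equals. The likeness rests on 4 lists from the same libraries and on few peaks.

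Of 11 embryonal carcinoma and pluripotency markers, Lin28a, Klf4 and Pou5f1 held a peak, with 12, 2 and 1 peaks, and the other 8 held none, beside 9.77% of all protein-coding genes with a peak. Of 6 neuron markers, Syt1 and Map2 did, and of 5 muscle and 5 fibroblast markers 0 and 0 did, and on lists this short these counts cannot be set apart from that share. A peak needs both the RNA and AGO2 on it, so these counts are no measure of expression. The nearest peaks outside the spans of the 4 genes were 34331 nt away from Chd1, with a score of 18, and at least 109147 nt away from the other 3, so no peak lay just outside a span. The peak nearest to a span edge from inside was that of CIMS in Chd1, at 1652 nt.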

How the data were processed

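AGO2 HITS-CLIP peak lists of P19 cells were analysed. The submitters' processing notes name mm10, Novoalign and cutadapt, with no versions. How the callers were set, and how 3 libraries became 1 list per caller, is not stated there or in the labels. The authors deposited 4 lists with a score per peak, of no stated unit and at least 10. Depth per library is unknown, and intervals cover counting error only. The labels do not say whether the libraries came from separate cultures.

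Peaks were assigned to each RefSeq gene span (GRCm38.p6, the coordinates of mm10, counted from 1) that held the midpoint, on either strand. Gene strands came from the RefSeq promoter table, which lists 17492 of 21900 protein-coding genes; exons were not used. Peaks were merged into loci by an overlap of at least 1 nt, strand ignored. Of 124 gene list entries, 123 matched; Idax did not.

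The 4 genes and the gene lists were chosen with earlier results of these data known. Genes named were those with peaks in at least 2 lists, the first 3 of each gene list by number of lists and peaks, and the 2 nearest in profile; some genes that meet this rule are not reported here. Chd6, Chd8, Chd9, Hdac1 and the marker genes were named after their values were seen, as were the width classes and the comparisons by strand. With 1 group, no test between samples was possible. On simulated data, 1000 of 1000 planted peaks returned to their gene. Python 3.11.15, numpy 2.4.6, pandas 2.3.3, scipy 1.17.1 and matplotlib 3.10.9 were used.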

Additional observations from a re-analysis of the deposited data

How the results depend on the processing

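With scores of at least 15, the 4 genes kept 2 of 11 peaks, both in Tet3 and both in the last 10% of the span, with a median percentile of 30.7 within the shortened lists (32.7 in the full lists). No site of 2 lists and no gene with peaks in 2 lists was left (0 and 0, against 4 and 4), and Dnmt3a, Chd1 and Hdac2 held 0 peaks each. The genes with a peak were then 3 for DNA methylation, 4 for remodelling, 2 for deacetylases and 3 for their partners, against 5, 10, 4 and 6. Without PIPE-CLIP, 6 peaks were left, 4 of them in the last 10% of the span, with Chd1 read along its peaks' strand. That setting left 2 sites and 2 genes in 2 lists (Chd1 and Hdac2) and a median percentile of 24.8. The gene counts were 3, 3 and 2 for the first 3 gene lists. Merging overlapping peaks within a list moved the median percentile to 32.9. These changes follow from the fewer peaks or the new ranks of each setting. The other settings, namely any overlap with the span, the gene's strand alone, peaks in exactly 1 span, and stricter joining of peaks, left each count within 1.5 times its value and the median percentile as it was. Over all settings this held for 56 of 80 values. Within that limit, deacetylase partners with a peak still fell from 6 to 4 on the gene's strand alone. They fell to 5 with peaks in exactly 1 span or without PIPE-CLIP. Settings for the position, the percentile and the peaks of single genes were chosen after the data were seen. Leaving out each library in turn was not run, since the lists give no value per library. No paired analysis was possible because there is 1 group and no column per library.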
